A study of Mus musculus with 2 samples.

Results

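A set of 8 genes that serve heme synthesis or the surface and gas exchange of red cells were followed in single leukemia cells: Alas1, Alas2, Urod, Cpox, Fech, Rhag, Ermap and Car2. They were chosen by symbol, with earlier results of these data known, from 31053 genes in the files, and all 8 were found. Each was described in cells with many and with few globin transcripts, and between the oil-labelled library and the tamoxifen-labelled library.

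The cells were mouse acute myeloid leukemia cells driven by AML1-ETO9a (AE9a), a truncated fusion protein introduced with GFP, and were grown in wild-type recipients. Both groups carried UBCER-Cre, a recombinase made in all tissues and switched on by tamoxifen, and a floxed Usp18 gene. The title, genotype and treatment labels give Usp18f/f for the mice injected with oil and Usp18delta/delta for those injected with tamoxifen, while the treatment protocol names Usp18+/f cells and a heterozygous depletion, so the libraries are named here by injection. GFP+ Lin- c-Kit+ splenocytes of 3 mice per group were pooled and sorted 3 days after the first injection, which left 1 library per group. The mice were young adults of both sexes by the methods, with no age given per library, and cells cannot be assigned to a mouse. The Lin- gate used a commercial lineage cocktail, whose usual antibodies include one against mature red cells, so the sort itself limits how far red cell maturation can be followed.

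Heme is built in a chain of enzymatic steps that begins and ends in the mitochondrion. The first step, which joins glycine to succinyl-CoA, is made by Alas1 in most cells and by its erythroid counterpart Alas2 in maturing red cells. The porphyrin precursor is then shaped by enzymes that include Urod and Cpox, and Fech, ferrochelatase, finally inserts iron. Rhag is a partner of the Rh antigens in the red cell membrane, Ermap is an erythroid surface protein of the immunoglobulin superfamily, and Car2 is the carbonic anhydrase best known for interconverting carbon dioxide and bicarbonate in red cells.

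After cells with under 500 genes or over 10% mitochondrial UMIs were left out, 6838 cells remained in the oil-labelled library and 6472 in the tamoxifen-labelled library, with 66045700 and 60661486 UMIs, the distinct captured transcripts. The median was 8622.5 and 8209.5 UMIs per cell, and 12 of the cell barcodes kept were found in both libraries. With 1 library per group no difference could be set against a spread between animals, so no test was run, and every interval given is a 95% interval for counting error only. Usp18, the targeted gene, was higher in the tamoxifen-labelled library (15.4 CPM, UMIs scaled to a common total) than in the oil-labelled library (5.62 CPM), although the tamoxifen label names its deletion. Whether these counts can report a deleted allele was not tested, so they do not show whether deletion took place. Directions are therefore given between the libraries under their labels. Cells were ranked within each library by the share of their UMIs from globin genes. The highest 10% (684 and 648 cells, globin share from 2.09% and 2.34% upward) were called high, and the lower 50% (3419 and 3236 cells, at most 0.123% and 0.116%) were called low. No member was used for the ranking.

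Defining erythroid markers were present: Klf1, an erythroid transcription factor, stood at 108 CPM in high and 66.5 CPM in low cells of the oil-labelled library, and at 118 and 60.7 CPM in the other. Of 14 granulocyte and monocyte markers, 8 had any UMI in each library and Elane and S100a8 stood at 0 in both. Their summed level was 4.32 to 15.6 CPM across the high and low groups. Cd68, the 1 marker of this list with at least 100 UMIs, made up most of it. It stood at 13.8 and 3.17 CPM in high and low cells of the oil-labelled library (log2 ratio 2.12, 1.66 to 2.57). In the other library it stood at 12.6 and 2.73 CPM (2.21, 1.71 to 2.70). The 10 lymphocyte markers together stayed between 0.600 and 1.11 CPM. The 13 mast and basophil markers summed to 4623 CPM in high and 2985 CPM in low cells of the oil-labelled library, and to 3308 and 3135 CPM in the tamoxifen-labelled library. They did not move together: Mcpt1, a mast cell protease, was 5.33 log2 units higher in high cells of both libraries, whereas Cpa3, mast cell carboxypeptidase, was lower by 2.42 and 2.75. High cells were also shallower, with a median of 6210.5 against 9137 UMIs in the oil-labelled library and 6297.5 against 7961.5 in the other. The S phase list was lower in high cells (2570 against 3452 CPM, and 2075 against 2600 CPM), as was the G2M list (6916 against 8771 CPM, and 6157 against 6488 CPM). The part of the mast cell markers, depth and cycle genes in the results below was not tested beyond the values given within subsets of the cells.

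The 8 genes were mostly higher in cells rich in globin, Alas2 by far the most, while no rise was detectable for Alas1. Of the 8 genes, 7 were at least 1.5-fold higher in high cells of the oil-labelled library, where 9.42% of 9474 genes with at least 100 UMIs were that much higher and 13.5% that much lower. In the tamoxifen-labelled library 6 were at least 1.5-fold higher, beside 8.58% of 9372 genes higher and 15.5% lower. None of the 8 was 1.5-fold lower in either library, although Alas1 passed that fold downward in the tamoxifen-labelled library in 12 of 21 alternative settings. Fech missed the fold in the tamoxifen-labelled library, and scaling by median-ratio size factors, which raises every log2 ratio by 0.11 in the oil-labelled library and by 0.16 in the other, put it past (0.67). The median log2 ratio of the 8 genes was 0.69 and 0.91.

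The Alas pair showed the sharpest split. Alas2 (ENSMUSG00000025270; chromosome X from 150547375 to 150570638, plus strand, GRCm38) was found at 98.3 CPM (89.7 to 108) in high and at 0.557 CPM (0.335 to 0.870) in low cells of the oil-labelled library, a log2 ratio of 7.46 (6.80 to 8.21). In the tamoxifen-labelled library it stood at 144 CPM (134 to 155) and 0.810 CPM (0.519 to 1.20), a log2 ratio of 7.48 (6.89 to 8.13). That is a difference of 177 times (112 to 296) and 178 times (119 to 280). The low cells held 19 and 24 Alas2 UMIs in all, and no low cell of the oil-labelled library held more than 1.

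Alas1 (ENSMUSG00000032786; chromosome 9 from 106233455 to 106248654, minus strand) was sparse, and no rise with globin was detectable at this depth. It stood at 8.01 CPM (5.69 to 10.9) in high and 8.09 CPM (7.17 to 9.11) in low cells of the oil-labelled library. In the tamoxifen-labelled library the levels were 5.40 CPM (3.56 to 7.86) and 7.96 CPM (6.98 to 9.05). The log2 ratios of -0.02 (-0.54 to 0.47) and -0.56 (-1.19 to 0.02) both have intervals that include 0, from 39 and 27 UMIs in high cells. The second interval lay below 0 in 11 of the alternatives, for example in all barcodes (-0.67, -1.30 to -0.09) and in cells with at least 3000 UMIs (-0.66, -1.31 to -0.08), and the first in none of those run. Of all UMIs of the 2 synthase genes, Alas2 gave 92.5% in high and 6.44% in low cells of the oil-labelled library, and 96.4% and 9.23% in the tamoxifen-labelled library.

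Upstream sequences of Alas2 are shown with those of the 3 other members that held the letters AGATAA or TGATAA, the form that erythroid GATA factors are known to bind, in the 250 bases before the RefSeq start. The sequences are from RefSeq on GRCm38.p6, 5′ to 3′ on the strand of the gene, with the match in capitals, here read from the opposite strand as TTATCT or TTATCA, and each stretch ends before the first annotated transcript base. Alas2 is chrX:150547167-150547374 on the plus strand, Rhag chr17:40810899-40811125 on the plus strand, Ermap chr4:119190012-119190245 on the minus strand and Cpox chr16:58669958-58670207 on the plus strand.
Alas2: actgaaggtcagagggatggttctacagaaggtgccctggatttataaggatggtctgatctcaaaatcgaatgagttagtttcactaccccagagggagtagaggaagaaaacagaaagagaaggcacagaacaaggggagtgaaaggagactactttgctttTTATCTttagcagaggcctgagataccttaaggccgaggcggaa
Rhag: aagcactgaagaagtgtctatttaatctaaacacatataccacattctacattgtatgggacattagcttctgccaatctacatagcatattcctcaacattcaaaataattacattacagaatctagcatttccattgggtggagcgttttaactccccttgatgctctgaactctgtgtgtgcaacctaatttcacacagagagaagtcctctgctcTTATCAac
Ermap: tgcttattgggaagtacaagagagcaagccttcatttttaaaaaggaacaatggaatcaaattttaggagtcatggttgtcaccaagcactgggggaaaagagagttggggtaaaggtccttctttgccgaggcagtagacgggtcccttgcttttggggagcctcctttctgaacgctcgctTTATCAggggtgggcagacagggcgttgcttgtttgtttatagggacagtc
Cpox: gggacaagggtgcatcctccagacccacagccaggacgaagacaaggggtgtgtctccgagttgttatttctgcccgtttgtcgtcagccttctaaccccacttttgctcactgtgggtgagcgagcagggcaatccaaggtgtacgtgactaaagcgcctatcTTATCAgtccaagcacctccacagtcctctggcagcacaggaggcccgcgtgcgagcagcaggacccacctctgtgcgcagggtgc
The Alas2 match begins 86 bases before the start, the Rhag match 31, the Ermap match 67 and the Cpox match 86. Of 32851 promoters searched over the same 250 bases before the start, 16.6% held at least 1 match on either strand. Alas1, with 2 entries, and Urod held no match in this window, which says only that these letters are absent there. Both Alas1 windows lie inside the annotated gene, whose first base on the minus strand is 106248654. They reach no further upstream than 106248204 and 106247980, unlike the stretches shown, which end before the first annotated transcript base. The letters CCACCC, which Klf1-type factors are known to bind, were found on either strand in 28.1% of promoters, 3 times in Alas2 (each overlapping the next by 1 base), once in Rhag, Ermap and 1 of the Alas1 entries, and not in Urod or Cpox. The 3 CCACCC matches of Alas2 begin 40, 35 and 30 bases before the RefSeq start. The Alas2 stretch shown ends 42 bases before that start, so these 3 matches are not in it. They lie past the first annotated transcript base. No match of one search overlapped a match of the other, and a match is a description of the sequence only.

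Alas2 rose late along the globin ranking. Over 10 bins of cells of equal number, ordered by globin share, it stayed at or below 1.55 CPM in the first 6 bins of both libraries. It then reached 15.6 and 15.6 CPM in bin 9 and 98.4 and 145 CPM in bin 10 of the oil- and tamoxifen-labelled libraries. The high cells held 71.4% (67.8 to 74.8%) and 79.6% (76.8 to 82.2%) of all Alas2 UMIs, against 7.38% and 8.24% of all UMIs of any gene.

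**Figure D1:**
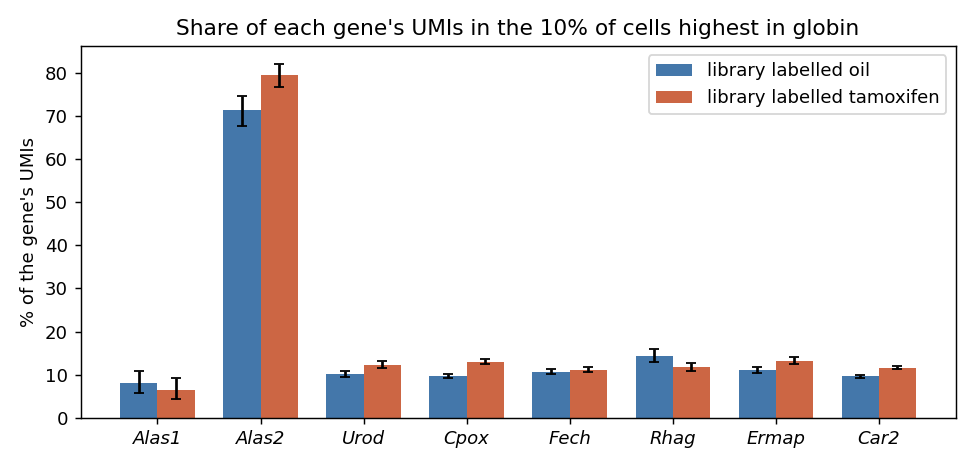
Share of each gene's UMIs, in percent, that lay in the 10% of cells highest in globin, for the oil- and tamoxifen-labelled libraries; error bars are 95% exact binomial intervals for counting error. Alas2 stands at 71.4% and 79.6%, and the other 7 genes lie between 6.49% and 14.3%.

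Per 1000 globin UMIs there were 2.17 Alas2 UMIs in high and 1.28 in low cells of the oil-labelled library, 1.70 times more in high cells (log2 ratio 0.77, 0.11 to 1.51). The tamoxifen-labelled library held 2.49 and 1.87 (0.41, -0.17 to 1.06). Globin itself, which set the groups, stood at 45289.8 and 436 CPM in high and low cells of the oil-labelled library, so any gene that rises less than globin has to fall on this scale. Whether the few Alas2 UMIs of low cells came from those cells or from free RNA of globin-rich cells cannot be told apart, since all cells belong to 1 sorted population and no cell type that lacks the gene was at hand. Alas2 also overlaps Apex2 on the opposite strand along its whole length. Apex2, a DNA repair endonuclease, had 526 and 464 UMIs, and stood at 12.7 against 6.60 CPM and at 10.8 against 6.18 CPM in high and low cells, log2 ratios of 0.95 and 0.81 that are far smaller than those of Alas2.

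The later enzymes of the pathway were all higher in high cells, by far less. Urod, uroporphyrinogen decarboxylase (ENSMUSG00000028684; chromosome 4 from 116989965 to 116994413, minus strand), stood at 156 CPM in high and 103 CPM in low cells of the oil-labelled library (log2 ratio 0.60, 0.49 to 0.71) and at 158 and 87.3 CPM in the tamoxifen-labelled library (0.85, 0.74 to 0.97). Cpox, coproporphyrinogen oxidase (ENSMUSG00000022742; chromosome 16 from 58670292 to 58717636, plus strand), stood at 290 and 183 CPM in the oil-labelled library (0.66, 0.58 to 0.75) and at 315 and 130 CPM in the tamoxifen-labelled library (1.28, 1.19 to 1.36). Fech (ENSMUSG00000024588) stood at 214 and 133 CPM in the oil-labelled library (0.68, 0.59 to 0.78) and at 234 and 164 CPM in the tamoxifen-labelled library (0.51, 0.42 to 0.61). No interval of these 3 genes included 0 in either library.

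These enzymes were present along the whole ranking. In the lowest globin bin, Urod stood at 81.1 and 66.8 CPM, Cpox at 105 and 69.0 CPM and Fech at 148 and 191 CPM in the oil- and tamoxifen-labelled libraries. The highest bin exceeded the lowest by 1.92 and 2.36 times for Urod. For Cpox the range between the lowest and the highest bin was 2.86 and 4.57 times, the widest of the 3 enzymes. Fech was lowest in the middle of the ranking, in bin 4 of the oil-labelled library (127 CPM) and bin 7 of the tamoxifen-labelled library (153 CPM), and highest in bin 10 (214 and 234 CPM). Bin 1 (191 CPM, 178 to 205) lay above bin 4 (156 CPM, 147 to 166) of the tamoxifen-labelled library beyond counting error. Cells of bin 1 were also the shallowest of the 10 bins. Their median was 5272.5 and 5173 UMIs, against 10840.5 and 9492 in bin 4 of the oil- and tamoxifen-labelled libraries. The part of depth in these differences between bins was not tested.

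**Figure D2:**
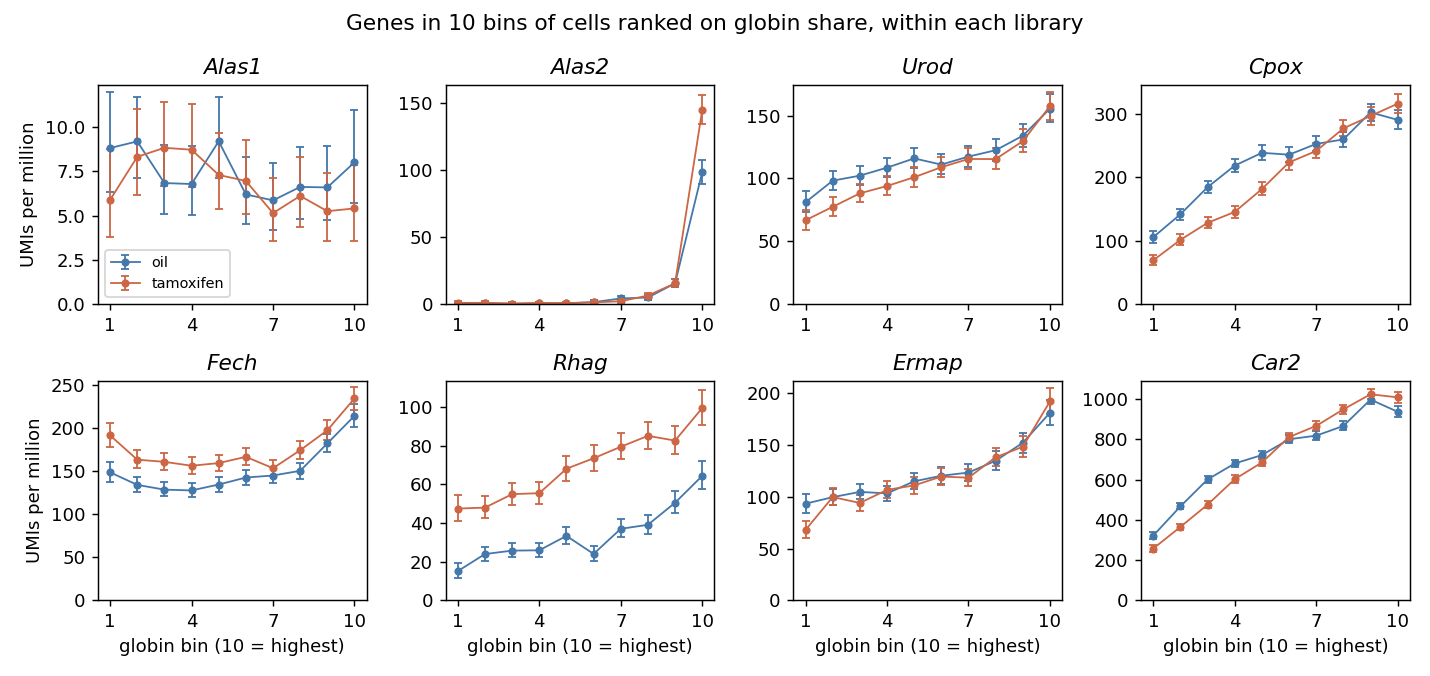
Level of each of the 8 genes, in CPM, in 10 bins of cells ranked by globin share within each library (10 is highest), with 95% Poisson intervals for counting error. Alas2 rises only in the last bins to 98.4 and 145 CPM, Alas1 shows no rise, and the other 6 genes are present in every bin and highest in bin 9 or 10.

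Other enzymes of the pathway, Alad, Uros and Ppox, also had higher levels in high cells. Alad, which follows the synthase, stood at 101 and 45.2 CPM in high and low cells of the oil-labelled library (log2 ratio 1.16) and at 83.7 and 33.7 CPM in the other (1.31). Uros, which closes the porphyrin ring, had log2 ratios of 0.50 and 0.89, and Ppox, which acts just before Fech, of 0.49 and 0.64. Of the 9 enzymes of the list, 6 were at least 1.5-fold higher in high cells of the oil-labelled library and 7 in the tamoxifen-labelled library, and none was lower by that much. The medians were 0.66 and 0.89 on the log2 scale, beside -0.11 and -0.16 over all genes tested.

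**Figure D3:**
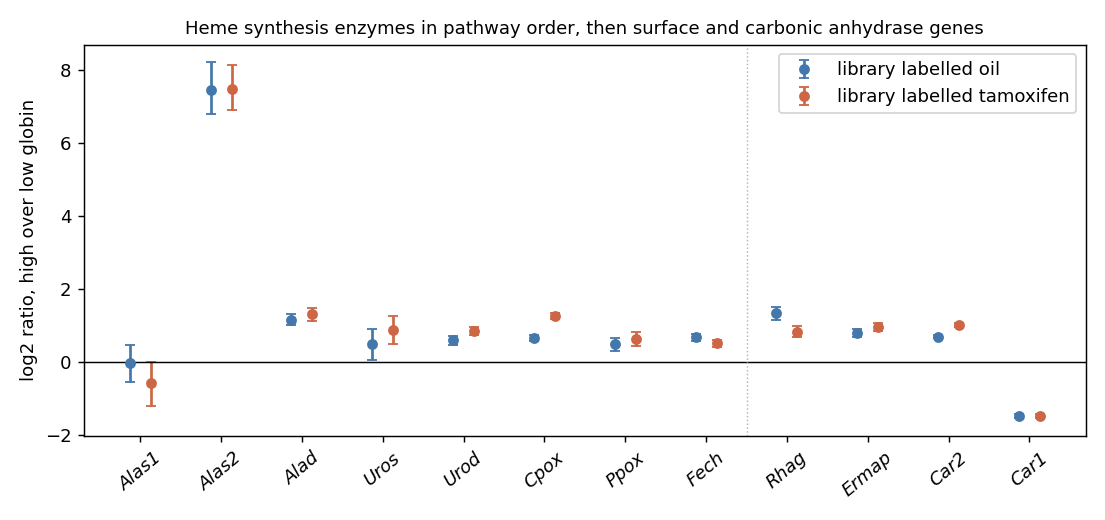
Log2 ratio of high over low globin cells for 8 heme synthesis enzymes in pathway order, then Rhag, Ermap, Car2 and Car1, in both libraries, with 95% exact intervals for counting error. Alas2 stands near 7.5, Alas1 spans 0, Car1 lies at -1.48 and -1.47, and every other gene is above 0.

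Both surface genes had higher levels in high cells. Rhag (ENSMUSG00000023926; chromosome 17 from 40811126 to 40840754, plus strand) stood at 64.3 CPM (57.3 to 71.8) in high and 25.5 CPM (23.8 to 27.2) in low cells of the oil-labelled library, a log2 ratio of 1.34 (1.15 to 1.52). In the tamoxifen-labelled library it stood at 99.3 CPM (90.7 to 108) and 55.5 CPM (52.8 to 58.2), a log2 ratio of 0.84 (0.69 to 0.98). Ermap (ENSMUSG00000028644; chromosome 4 from 119175457 to 119190011, minus strand) stood at 181 and 104 CPM in the oil-labelled library (0.80, 0.69 to 0.91) and at 192 and 98.2 CPM in the tamoxifen-labelled library (0.97, 0.86 to 1.08). Between the libraries Ermap differed by 0.09 in high and -0.08 in low cells on the log2 scale, tamoxifen over oil, while Rhag was higher under the tamoxifen label at both ends.

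Car2 (ENSMUSG00000027562; chromosome 3 from 14886273 to 14900770, plus strand) stood at 937 and 577 CPM in high and low cells of the oil-labelled library (log2 ratio 0.70, 0.65 to 0.75) and at 1008 and 499 CPM in the tamoxifen-labelled library (1.02, 0.97 to 1.06). It climbed over most of the ranking, from 322 and 257 CPM in bin 1 to 998 and 1024 CPM in bin 9. Car1, the other classical red cell carbonic anhydrase, went the opposite way: it fell from 1708 CPM in low to 613 CPM in high cells of the oil-labelled library and from 1311 to 473 CPM in the other, log2 ratios of -1.48 and -1.47. Of the carbonic anhydrases tested, 3 of 7 and 4 of 6 were at least 1.5-fold higher in high cells and 2 in each library that much lower. Car5b (2.55 and 2.04) and Car13 (0.95 and 1.19) were higher in high cells, and Car8 was lower (-1.40 and -3.13).

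These ratios differed in size between the libraries for 6 of the genes, as far as counting error goes. The log2 ratio in the tamoxifen-labelled library minus that in the oil-labelled library was 0.61 (0.49 to 0.73) for Cpox, 0.32 (0.25 to 0.38) for Car2, 0.25 (0.09 to 0.41) for Urod and 0.17 (0.02 to 0.32) for Ermap. For Rhag it was -0.50 (-0.73 to -0.26) and for Fech -0.17 (-0.31 to -0.04). For Alas2 it was 0.02 (-0.87 to 0.90) and for Alas1 -0.54 (-1.30 to 0.21), with intervals that include 0 and are wide. With 1 library per arm these differences belong to the libraries and cannot be told apart from differences between pools of mice.

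The cell cycle moved with globin. The comparison was therefore repeated in cells below and in cells at or above the library's median share of S and G2M list UMIs. Cells were split by mast list share in the same way. High and low cells were ranked anew within each set, so their globin limits can differ from those over all cells. Cpox gave log2 ratios of 1.32 and 0.96 in the lower and upper set of the oil-labelled library, both above its value of 0.66 over all cells, and 1.68 and 1.36 in the tamoxifen-labelled library. Car2 gave 1.14 and 0.92, and 1.61 and 0.95. Ermap was more split, at 1.21 and 0.50 in the oil-labelled library and at 1.40 and 0.54 in the other, and Urod fell to 0.32 in the upper set of the oil-labelled library. Alas2 stayed between 5.87 and 8.23 in all 4 sets. In cells below and in cells at or above the median mast list share, Alas2 lay between 6.88 and 8.29, and Fech in the tamoxifen-labelled library lay at 0.71 and 0.24. Some members fell under 1.5-fold within these subsets: Rhag had 0.46 (0.23 to 0.68) in the lower cycle set of the tamoxifen-labelled library, and Ermap had 0.49 (0.35 to 0.63) in cells of the oil-labelled library below the median mast list share.

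Among genes of the red cell membrane outside the 8, the pattern of Alas2 was shared by Slc4a1, the anion exchanger band 3. It stood at 46.2 CPM in high and 0.15 CPM in low cells of the oil-labelled library and at 42.2 and 0.13 CPM in the tamoxifen-labelled library, log2 ratios of 8.30 and 8.29 from 5 and 4 UMIs in low cells. Dmtn, dematin (2.63 and 3.19), and Epb42, protein 4.2 (2.61 and 2.57), followed. Rhd, the Rh antigen that pairs with Rhag, had log2 ratios of 1.96 and 2.33, larger than those of Rhag. Of 23 membrane genes tested, 16 and 17 were at least 1.5-fold higher in high cells of the oil- and tamoxifen-labelled libraries, and 1, the nucleoside transporter Slc29a1, was that much lower in the oil-labelled library (-0.60).

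Carriers that serve heme synthesis were also higher in high cells. Slc25a37, mitoferrin, which brings iron into the mitochondrion, had log2 ratios of 1.92 and 1.95, and the mitochondrial transporter Abcb10 of 1.28 and 1.24. Hebp1, a heme-binding protein, had 2.15 and 2.49. Hmox1, heme oxygenase, which breaks heme down, passed the minimum of 100 UMIs in the tamoxifen-labelled library, with 20.01 CPM in high and 0.94 CPM in low cells. In the oil-labelled library, with too few UMIs to pass, it stood at 2.87 and 1.99 CPM (log2 ratio 0.53, -0.42 to 1.37), so that difference was not seen in both libraries. Of the heme transport and handling list, 7 of 18 and 8 of 19 genes tested were at least 1.5-fold higher and none was that much lower, with Clpx, Flvcr1 and Hmox2 at the low end (-0.45 to 0.10). Of the erythroid regulators, 10 of 16 and 8 of 15 were that much higher, led by Nfe2 (1.93 and 2.18) and E2f2 (1.83 and 2.42), and Trim10, tested in the oil-labelled library, stood at 4.43 (5.15 in the other, from fewer than 100 UMIs). Bcl11a, Gfi1b and Ldb1 lay between -0.24 and 0.14. Of the iron list, 4 of 8 were that much higher and 1 lower in each library, with Ftl1 (0.996 and 1.14), Tfrc (0.87 and 0.87) and Aco1 (0.92 and 0.87) at the high end and Ireb2, Slc11a2 and Tfr2 at the low end, down to -0.84.

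Shares of cells with a transcript depend on depth, so each cell was thinned to 3000 UMIs, and 508 and 345 shallower cells were left out. Alas2 was then seen in 19.4% (16.3 to 22.8%) of high and 0.251% (0.108 to 0.493%) of low cells of the oil-labelled library, and in 26.8% (23.2 to 30.5%) and 0.421% (0.224 to 0.718%) in the other. Without thinning the shares were 30.8% and 0.556%, and 41.0% and 0.711%. Most high cells therefore showed no Alas2 UMI at this depth, which does not show that they lacked the transcript. Car2 was seen in 76.6% of high and 60.5% of low thinned cells of the oil-labelled library and in 78.7% and 56.2% in the other (85.8% and 75.3%, and 87.5% and 72.5%, unthinned), and Alas1 in 2.70% and 2.98%, and 1.37% and 2.26% (5.41% and 7.52%, and 3.70% and 6.83%, unthinned). The most UMIs in 1 cell were 14 and 16 for Alas2, 73 and 86 for Car2 and 3 and 2 for Alas1.

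Correlations between the 8 genes over single cells were low in the thinned counts. Over 6330 and 6127 thinned cells, which share depth and library, the largest correlation between 2 of them was that of Cpox with Car2, a Pearson r of 0.31 and 0.29. All other pairs lay below 0.1 in both libraries. Thinned cells held a mean of 0.0250 and 0.0204 Alas1 UMIs, the fewest, and 1.86 and 1.85 Car2 UMIs, the most. Counts this sparse keep r low, so a low r does not show that 2 genes are unlinked. Among 7987 genes with at least 1000 UMIs, Alas2 was most like Hba-a2, an alpha globin (mean r 0.41), then Hba-a1 (0.31) and Hbb-bt (0.31). Car2 was most like Prdx2, a peroxiredoxin abundant in red cells (0.40), then Tmem14c (0.34) and Ran (0.34). Cpox was also most like Prdx2 (0.29), then Ran (0.26) and Mki67, a proliferation marker (0.25). For Rhag, Ermap, Alas1, Urod and Fech the closest genes, which were Gm15915, Hba-a1, Cep83, Fth1 and Csf2rb, reached a mean r of 0.17 at most, which is weak in counts this sparse.

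Over all cells kept, Rhag was the one gene of the 8 that differed by at least 1.5-fold between the libraries. It stood at 33.1 CPM (31.8 to 34.6) in the oil-labelled library and 69.6 CPM (67.5 to 71.8) in the tamoxifen-labelled library, a log2 ratio of 1.07 (0.996 to 1.15) or 2.10 times. Of 10527 genes with at least 100 UMIs, 2.09% were at least 1.5-fold higher in the tamoxifen-labelled library and 1.27% at least 1.5-fold lower. No member was 1.5-fold lower.

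Alas2 came next, at 10.2 CPM (9.41 to 10.96) and 15.0 CPM (14.0 to 16.0), a log2 ratio of 0.56 (0.41 to 0.70) that lies just under the fold. Of the 10 globin bins, 1 had an interval above 0 for Alas2, bin 10 (0.56, 0.39 to 0.73). Bin 7 had one below 0 (-0.95, -1.95 to -0.001), and the intervals of the other bins included 0. Bin 9, with 99 and 95 UMIs, stood at 0.004 (-0.42 to 0.42). Summed globin stood at 6052 CPM in the oil-labelled library and 7667 CPM in the tamoxifen-labelled library, and per 1000 globin UMIs there were 1.68 and 1.95 Alas2 UMIs. Alpha globin gave this difference, with log2 ratios of 0.59 for Hba-a1 and 0.82 for Hba-a2, while the beta globins Hbb-bs (0.08) and Hbb-bt (-0.01) stayed nearly level. Fech stood at 148 and 173 CPM (0.23, 0.19 to 0.27). These were the members with an interval above 0 when scaled by total UMIs.

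The other 5 genes lay close together in the 2 libraries. Car2 stood at 723 and 717 CPM (log2 ratio -0.01, -0.03 to 0.01) and Ermap at 121 and 120 CPM (-0.02, -0.06 to 0.03). Alas1 stood at 7.36 and 6.86 CPM (-0.10, -0.29 to 0.09). Urod stood at 114 and 106 CPM (-0.11, -0.16 to -0.06) and Cpox at 223 and 200 CPM (-0.15, -0.19 to -0.12), both lower in the tamoxifen-labelled library beyond counting error, beside a median of -0.06 over all genes tested. With TMM scaling, which raises each log2 ratio by 0.07, the interval of Urod included 0 (-0.04, -0.09 to 0.006), that of Cpox did not (-0.09, -0.12 to -0.05), and those of Car2 (0.05, 0.04 to 0.07) and Ermap (0.05, 0.003 to 0.10) lay above 0. No heme synthesis enzyme reached the fold in either direction, and the median of the 9 was -0.11.

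**Figure D4:**
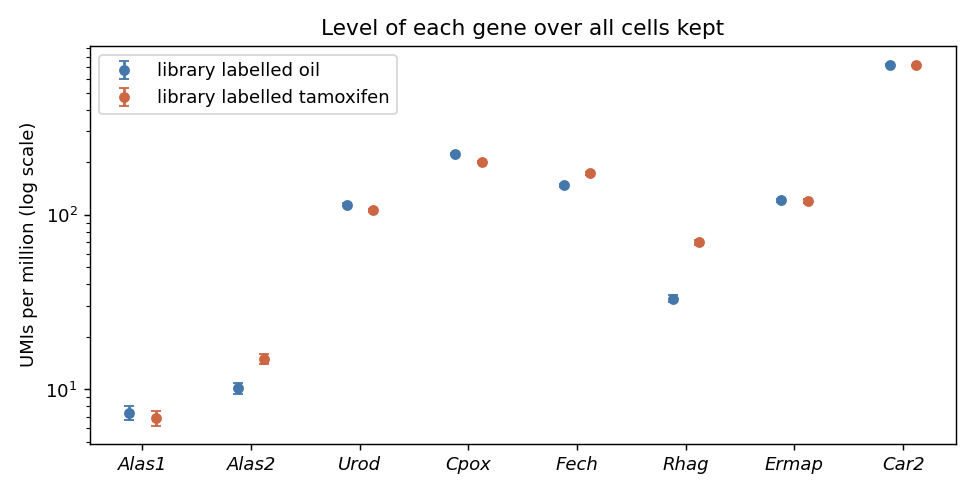
Level of each gene over all cells kept, in CPM on a log axis, in the oil- and tamoxifen-labelled libraries, with 95% Poisson intervals for counting error. Rhag stands at 33.1 and 69.6 CPM and Alas2 at 10.2 and 15.0 CPM, while the points of the other 6 genes lie within 1.17 times of each other.

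The Rhag difference was present along the whole globin ranking. It was higher in the tamoxifen-labelled library in 10 of 10 bins, with every interval above 0 and log2 ratios from 0.63 in bin 10 to 1.65 in bin 1. In low cells the log2 ratio was 1.12 (1.005 to 1.24) and in high cells 0.63 (0.42 to 0.84). In cells below and at or above the median cycle share of their library it was 0.98 and 1.11, and split likewise by mast list share 1.15 and 0.93. After thinning, Rhag was seen in 8.59% (7.91 to 9.31%) and 15.9% (15.0 to 16.8%) of cells, and without thinning in 17.6% and 30.5%. Cells with at least 3 Rhag UMIs made up 3.69% and 8.82%.

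The rest of the red cell membrane list did not show a difference of that size. Of its 23 genes tested, Rhag was the only one past 1.5-fold, followed by Xk (0.51) and Cd59a (0.45), and the list's median was -0.05. Rhd, its partner gene, stood at 46.7 and 41.9 CPM (-0.16). Ackr1, Icam4 and Bsg were at the low end (-0.25, -0.26 and -0.31). No other gene of the heme transport, carbonic anhydrase, iron or regulator lists passed 1.5-fold either, the nearest being Hebp1 (0.58) and E2f2 (-0.43).

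Fech was higher in the tamoxifen-labelled library in 10 of 10 bins, with 8 intervals above 0, but by 0.08 to 0.37 on the log2 scale. Cpox and Car2 changed sides along the ranking. Cpox had log2 ratios of -0.61 to -0.39 in bins 1 to 5 and 0.12 in bin 10, which came to -0.49 (-0.55 to -0.43) in low and 0.12 (0.02 to 0.23) in high cells. Car2 had -0.36 to -0.08 in bins 1 to 5 and 0.02 to 0.13 above them, with -0.21 (-0.24 to -0.18) in low and 0.11 (0.05 to 0.16) in high cells. Urod had 5 intervals below 0, all in bins 1 to 5, and none above. The S phase list also differed between the libraries in low cells (3452 and 2600 CPM), and so did the G2M list (8771 and 6488 CPM). Their part in the lower Cpox, Car2 and Urod of low cells was not tested. Within cells below the median cycle share of their library, Cpox had -0.04 and Car2 0.16 between the libraries, and in the other cells -0.14 and -0.03. Because the median was taken within each library, these sets were not matched in cycle level between the libraries.

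**Figure D5:**
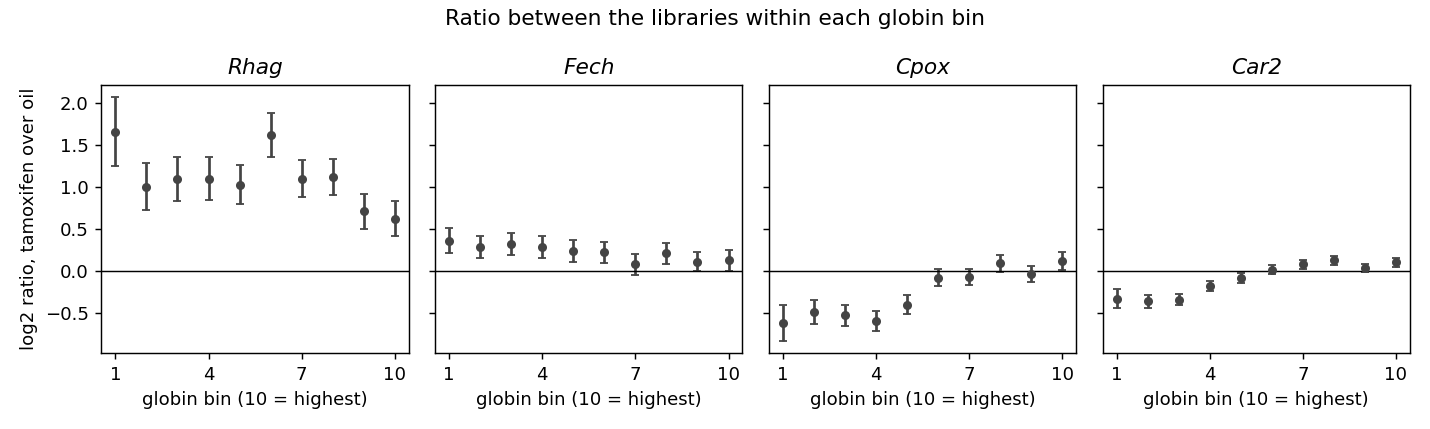
Log2 ratio of the tamoxifen-labelled library over the oil-labelled library within each of 10 globin bins (10 is highest) for Rhag, Fech, Cpox and Car2, with 95% exact intervals for counting error. Rhag lies between 0.63 and 1.65 in every bin, Fech between 0.08 and 0.37, and Cpox and Car2 run from below 0 in the lower bins to 0.12 and 0.11 in bin 10.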

How the data were processed

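UMI counts per gene and cell of 2 mouse libraries were analysed as deposited. The authors made these counts from 3′ reads of the 10x Genomics V3 kit with Cell Ranger (3.0.2 in the file header) on mm10, without normalization. Strand settings of the counting are not given in the sources used here. A minimum of 500 genes and a maximum of 10% mitochondrial UMIs were set for cells. No doublet caller was run; the 6% deepest cells were left out in an alternative. Counts were summed over cells and divided by the total (CPM), with exact Poisson intervals, exact conditional binomial intervals for ratios and Clopper-Pearson intervals for shares, all at 95%. With 1 library per group there was no test. Ratios used genes with at least 100 UMIs over both groups, and a fold of 1.5 was the size rule.

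Named genes were the 8 members, the heme synthesis enzymes, the 3 highest and 3 lowest ratios per list, Usp18 and the 3 genes most like each member. Some genes that this rule selects are not reported here. Genes set beside these (Rhd, Klf1, Slc29a1) were added after their values were seen, as was Apex2 for its overlap. The members and lists were chosen with earlier results of these data known. The ratio step was tested on simulated data. GENCODE M21 on GRCm38 held 30934 of 31053 gene identifiers, and 6 of the 8 members had an entry in the RefSeq promoter table, Fech and Car2 being named only. Alternatives covered cell filters, TMM scaling (edgeR 4.0.16), median-ratio scaling (DESeq2 1.42.0), other totals, other globin groups, count minimums and thinning depths. R 4.3.3 and Python 3.11.15 were used, with matplotlib 3.10.9, pandas 2.3.3, scipy 1.17.1 and numpy 2.4.6.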

Additional observations from a re-analysis of the deposited data

Results flagged for a closer look

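Between the libraries, 2 genes went opposite ways at the ends of the globin ranking, with counting intervals on opposite sides of 0. Cpox had a log2 ratio of the tamoxifen-labelled library over the oil-labelled library of 0.12 (0.02 to 0.23) in high cells and -0.49 (-0.55 to -0.43) in low cells. Car2 had 0.11 (0.05 to 0.16) in high and -0.21 (-0.24 to -0.18) in low cells. The effects at both ends differed beyond counting error, by 0.61 (0.49 to 0.73) for Cpox and 0.32 (0.25 to 0.38) for Car2. With 1 library per group, this difference was not tested against the spread between pools of mice.

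Barcodes left out by the cell filter, 936 and 839, still held transcripts of the 8 genes. They summed to 4122 UMIs in the oil-labelled library and 4795 in the tamoxifen-labelled library, or 983 and 1098 CPM. Rhag stood at 44.4 CPM (38.2 to 51.2) and 108 CPM (98.8 to 119) there, a log2 ratio of 1.29 (1.04 to 1.54), the same direction as in the cells kept. Alas2 stood at 10.97 and 10.99 CPM, a log2 ratio of 0.003 (-0.61 to 0.62), so its difference between the libraries was not seen in these barcodes.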

How the results depend on the processing

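No paired analysis was possible because each arm holds 1 pooled library. Rhag stayed at least 1.5-fold higher in the tamoxifen-labelled library in all 16 alternatives run (log2 0.63 to 1.15). A second member, Alas2, joined it, giving 2, with a minimum of 1000 genes and a maximum of 5% mitochondrial UMIs (673 and 771 cells), under TMM, under median-ratio scaling, with mitochondrial genes and ribosomal protein genes left out of totals, and in cells below the median mast list share. Between the libraries, Cpox changed sign in cells high in globin (0.12), as did Urod (0.02), and Car2 changed sign in 8 and Ermap in 6 of the 16 alternatives. Over all listed genes, asking for only 1 UMI in each group gave 2 higher and 2 lower between the libraries, against 1 and 0.

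Between high and low cells, Alas2 kept a log2 ratio of 5.87 to 9.10 in the oil-labelled library and 6.09 to 9.93 in the other over 21 alternatives each. In cells at or above the median cycle share 4 members, not 7, passed the fold in the oil-labelled library. In the tamoxifen-labelled library 1 member, Alas1, became 1.5-fold lower, against 0, in all barcodes, at up to 20% mitochondrial UMIs, under the filter of 1000 genes and 5% mitochondrial UMIs together, without the deepest 6% of cells, in cells with at least 3000 UMIs, with those genes left out, in cells at or above the median cycle share or mast share, with 1 pooled threshold, and ranked by alpha globin, by beta globin or on thinned cells. It also did so, as 1 member, in the oil-labelled library under that same joint filter. Of the genes of these lists together, 81 and 80 were tested between high and low cells. At 1.5-fold, 46 and 48 were higher, beside 9.42% and 8.58% of all genes tested. In the oil-labelled library 4 were lower, beside 13.5%. A fold of 2 gave 23 and 29 higher, and 2 lower in the oil-labelled library. The share of all genes at a fold of 2 was not computed. For each other change the cause was not tested. Depth limits Alas1, with 486 and 416 UMIs in all, and Alas2 in low cells, with 19 and 24.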
